A study of Danio rerio with 11 samples.

Results

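Stage II oocytes of zebrafish mutant for znf706 were compared with wild-type (WT) stage II oocytes across all genes that these cells expressed. The genes were those with at least 1 FPKM (a read level scaled by transcript length and library size) in at least 2 of the 4 stage II libraries, whichever genotype those 2 belonged to. This held for 13091 of the 32055 gene IDs in the table. Of these, 11243 reached 1 FPKM in all 4 libraries, 645 reached it in mutant libraries alone and 485 in WT libraries alone. A further 29 had conflicting entries in the deposited table and were kept out of the test, which left 13062 genes.

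The groups were znf706 mutant stage II oocytes (2 libraries) and WT stage II oocytes (2 libraries), with znf706 mutant stage I oocytes (2 libraries) and WT stage I oocytes (2 libraries) used for comparison. The mutant fish carried the tsu7d allele made with CRISPR/Cas9, in the homozygous state, and the label MZznf706 marks their libraries (MZ is the common short form for maternal-zygotic). All oocytes came from 3-month-old females, were freed from the ovary with a cell dissociation buffer and were collected by pipette, about 150 stage II or 600 stage I oocytes to a library of polyadenylated RNA. The series text calls the 2 libraries of a group biological replicates without naming fish or clutches, so the p-values measure the spread between such libraries. The stated question of the series is the role of Znf706 in germ plasm formation and primordial germ cells. The sources used here do not say what the allele does to the znf706 transcript.

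Znf706 is a small zinc finger protein. Its mouse counterpart is known from embryonic stem cells, where it takes part in the exit from self-renewal. In zebrafish, stage I oocytes are in primary growth and hold the Balbiani body, an assembly of organelles, RNA and proteins that carries the germ plasm to the vegetal pole. At stage II the Balbiani body has dispersed, cortical alveoli (the later cortical granules) fill the cytoplasm and the egg coat thickens, while the main uptake of yolk is still to come. An oocyte at this stage stores RNA for the embryo, which inherits germ plasm, ribosomes and messages for cell division from its mother.

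The libraries carried an oocyte profile in both genotypes. The maternal histone h1m stood at 742 and 782 FPKM in mutant and 1003 and 897 FPKM in WT libraries, and the germ cell helicase ddx4 (vasa) at 98.3 and 104 FPKM in mutant and 116 and 113 FPKM in WT libraries. The oocyte growth factor bmp15 held 188 and 186 FPKM in mutant and 171 and 172 FPKM in WT libraries, and the maternal-effect gene zar1 held 641 and 597 FPKM in mutant and 771 and 721 FPKM in WT libraries. Of the 10 oocyte markers followed, figla was the lowest in WT, with 57.8 and 52.7 FPKM in mutants, against 8.35 and 10.04 FPKM in WT. Summed FPKM was 653659 and 666218 in mutant and 712725 and 694210 in WT libraries, the number of gene IDs at 1 FPKM or more was 12552 and 12691 in mutant and 12330 and 12384 in WT libraries, and the relative depth read from the smallest values was 0.886 and 0.868 in mutants and 0.911 in WT replicate 2, all against WT replicate 1. How many reads each library had cannot be read from FPKM. Replicates correlated at r = 0.986 in each genotype (across genes, which are not independent replicates), and mutant with WT libraries at 0.917 to 0.919. The 2 replicates differed at least 2-fold for 204 genes in mutants and 212 genes in WT.

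The znf706 transcript itself was not called at stage II. It had 129 and 142 FPKM in mutants, against 158 and 143 FPKM in WT, a log2 fold change of -0.15 ± 0.11 (SE; adjusted p = 0.28, limma with Benjamini-Hochberg adjustment over all genes tested, as for every adjusted p below). Fold changes throughout are on the scale of log2(FPKM + 1), mutant minus WT, a scale that makes the changes of low genes look smaller. At stage I znf706 was lower in mutants, at 181 and 147 FPKM in mutants and 232 and 238 FPKM in WT (log2 fold change -0.52 ± 0.11, adjusted p = 0.0044). Around znf706, in the gene order of another zebrafish assembly (GRCz12tu), the 5 tested genes on each side were followed. Of these 10, 2 rose and 3 fell, where 27.0% of all genes tested rose and 20.3% fell. The strongest call was psmg2, a proteasome assembly chaperone, with 100.0 and 106 FPKM in mutants, against 146 and 137 FPKM in WT (log2 fold change -0.45 ± 0.078, adjusted p = 0.002). Only psmg2 kept its call when each stage II library was left out in turn.

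Differences between mutant and WT stage II oocytes were widespread, and most of them were small. Of 13062 genes tested, 6174 (47.3%) passed an adjusted p of 0.05. Of these, 3524 genes (27.0%) rose in mutants and 2650 (20.3%) fell, and these shares are the background for every gene group below. The median absolute log2 fold change of the called genes was 0.69. Mutant and WT libraries did not overlap in 10020 genes (76.7%). A change of at least 2-fold was seen in 989 (7.57%) that rose and 746 (5.71%) that fell. The call was kept without each of the 4 stage II libraries in turn by 3507 genes (26.8%), 1957 that rose and 1550 that fell, and by 1623 of the 1735 genes with a 2-fold change. The median log2 fold change over all genes was 0.07, and 57.1% of calls were rises. That share was 47.7% with median-of-ratios scaling and 52.1% with quantile normalization, so the balance between rises and falls depends on the scaling, while the median moved by less than 0.1. The split also went with expression level. Among 1756 genes with a mean under 2 FPKM, 31.6% rose and 19.1% fell. Among 555 genes with a mean of at least 200 FPKM, 16.2% rose and 37.5% fell.

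**Figure D1:**
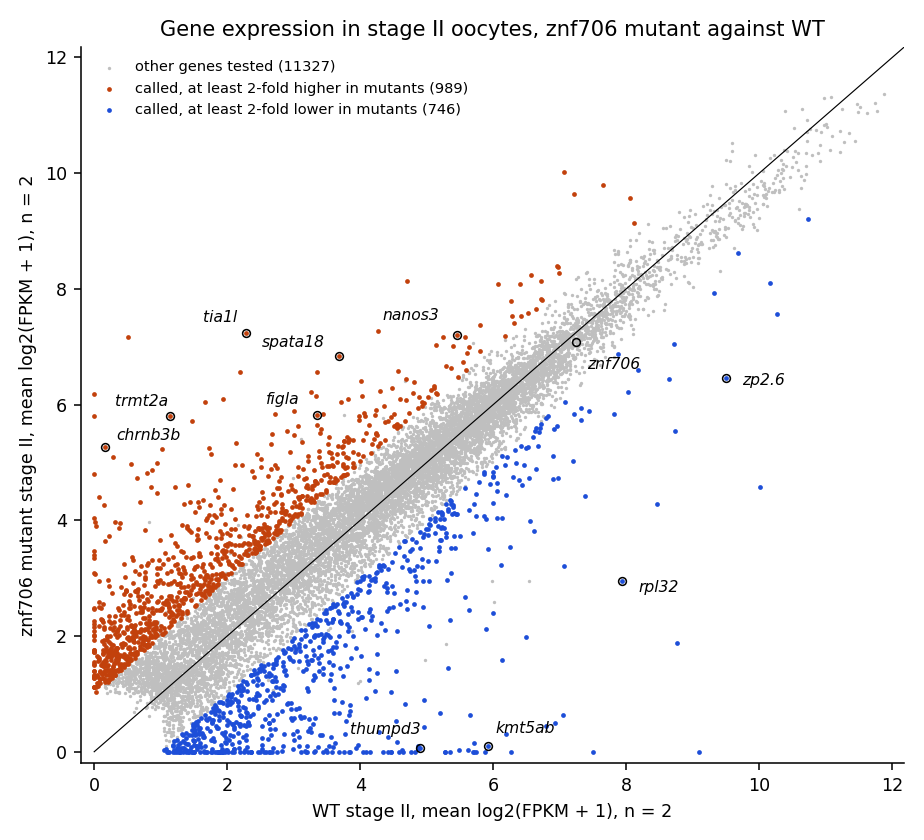
Mean log2(FPKM + 1) of each of the 13062 genes tested in znf706 mutant stage II oocytes (vertical axis) and WT stage II oocytes (horizontal axis), 2 libraries each; the line marks equal values. The 989 genes called and at least 2-fold higher in mutants lie above the grey band and the 746 called and at least 2-fold lower lie below it, with a row of genes near 0 in mutants along the bottom edge.

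A group of genes was at a clear level in one genotype and at almost none in the other. With at least 5 FPKM in both libraries of a genotype as on and under 0.5 FPKM in both of the other as off, 70 genes (0.536% of those tested) were off in mutants and on in WT, and 26 (0.199%) were on in mutants and off in WT. Of the 70, 32 were listed at exactly 0 in both mutant libraries, and 8 of the 26 were listed at 0 in both WT libraries. A value of exactly 0 in such a table can be a failed estimate, so these genes are described here by library. Where a fold change of such a gene enters a ranking or a stage difference, its size depends on the pseudocount. Names of uncharacterized clones made up 19 of the 70 and 16 of the 26.

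The highest of the genes that were off in mutants was the uncharacterized si:dkey-241l7.3. It was listed at 0 and 0 FPKM in mutants, against 672 and 440.2 FPKM in WT. At stage I it ran the other way, with 926 and 953 FPKM in mutants and 0.216 and 0.213 FPKM in WT. The uncharacterized si:cabz01069013.3 was listed at 0 and 0 FPKM in mutants, against 179 and 182 FPKM in WT, and was near 0 in mutants at stage I too. The spindle protein gene dlgap5, which encodes a factor that stabilises kinetochore microtubules, had 0.352 and 0.128 FPKM in mutants, against 67.7 and 76.7 FPKM in WT (log2 fold change -5.89 ± 0.13, adjusted p = 3.5e-08). The gene kmt5ab, for a methyltransferase of histone H4, had 0.0922 and 0.0457 FPKM in mutants, against 63.5 and 55.8 FPKM in WT (log2 fold change -5.82 ± 0.13, adjusted p = 3.5e-08), and it was off in mutants at stage I as well, at 0.0838 and 0.0821 FPKM in mutants and 116 and 109.8 FPKM in WT. Unlike kmt5ab, dlgap5 was on in both genotypes at stage I, at 46.9 and 53.4 FPKM in mutants and 20.3 and 19.7 FPKM in WT.

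Several regulators of transcription, RNA and protein modification belonged to the same set. The Mediator subunit gene med28 was listed at 0 and 0 FPKM in mutants, against 36.4 and 43.2 FPKM in WT. The palmitoyltransferase gene zdhhc4 was listed at 0 and 0 FPKM in mutants, against 49.0 and 54.3 FPKM in WT, and tmem60, which encodes a membrane protein, at 0 and 0 FPKM in mutants, against 54.1 and 50.3 FPKM in WT. All 3 were on in every stage I library of both genotypes. The gene kansl2, for a subunit of the NSL histone acetyltransferase complex, had 0 and 0.0388 FPKM in mutants, against 43.6 and 52.8 FPKM in WT (log2 fold change -5.59 ± 0.13, adjusted p = 4e-08). The forkhead gene foxf2b had 0 and 0.242 FPKM in mutants, against 51.5 and 51.5 FPKM in WT (log2 fold change -5.56 ± 0.12, adjusted p = 3.2e-08). The mitochondrial rRNA methyltransferase gene mrm1 was listed at 0 in all mutant libraries of both stages, against 34.3 and 41.5 FPKM in WT at stage II and 19.7 and 17.2 FPKM in WT at stage I. The kinetochore gene cenpo was listed at 0 and 0 FPKM in mutants, against 14.6 and 16.2 FPKM in WT.

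Of the 70 genes off in stage II mutants, 30 were at 5 FPKM or more in all 6 other libraries, so that the mutant stage II libraries alone lacked them. Another 8 were off in mutants and on in WT at both stages, and 6 were on in mutants and off in WT at stage I. Among the 26 genes on in stage II mutants, 5 were at 5 FPKM or more in all 6 libraries other than WT stage II, 9 were on in mutants and off in WT at both stages, and 1 ran the other way at stage I.

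The genes that were on in mutants and off in WT included ighv14-1, an immunoglobulin heavy chain variable segment. It had 74.2 and 68.8 FPKM in mutants and was listed at 0 and 0 in WT. The nicotinic acetylcholine receptor subunit gene chrnb3b had 36.8 and 37.7 FPKM in mutants, against 0.0762 and 0.156 FPKM in WT (log2 fold change 5.10 ± 0.10, adjusted p = 2e-08), although at stage I it was lower in mutants, with 48.0 and 46.2 FPKM in mutants and 80.8 and 73.0 FPKM in WT. The uncharacterized BX901907.2 had 34.8 and 31.7 FPKM in mutants, against 0.494 and 0 FPKM in WT (log2 fold change 4.81 ± 0.20, adjusted p = 8.9e-07), and it stood at 38.3 and 39.4 FPKM in mutants and 0.359 and 0.349 FPKM in WT at stage I. The TIA-1 family gene tia1, for an RNA-binding protein of stress granules, had 19.2 and 11.1 FPKM in mutants, against 0 and 0.0269 FPKM in WT (log2 fold change 3.95 ± 0.83, adjusted p = 0.0053). Its mutant values were 8.69 and 0.0247 FPKM at stage I, so replicates of tia1 differed widely.

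Some genes that changed by a large factor lay next to each other. Gene order was read from GRCz12tu, in which 11238 of the 13062 genes tested had a place, and it may differ from the order in the build behind the deposited values. Of the 5304 placed genes with a call, 2427 (45.8%) had an adjacent tested gene called in the same direction. Over all genes tested 27.0% were called higher and 20.3% lower, and most genes have a neighbour on each side. Many such pairs are therefore met through the number of calls alone, and no share expected by chance was computed. Of the 1325 placed genes with a 2-fold call, 289 (21.8%) had an adjacent tested gene with a 2-fold call in the same direction. Among all placed genes, 11.8% had a 2-fold call in either direction. Of the 70 placed on and off genes, 47 (67.1%) had an adjacent tested gene called in the same direction, with no fold limit. The share to set beside this is the 45.8% of all placed genes with a call. Among the 70, 9 had a neighbour that was itself on or off in the same direction. There were 22 runs of at least 3 adjacent tested genes that were all called, at least 2-fold and in the same direction. They held 85 genes, 12 runs rose and 10 fell, and the genes named from them were chosen after their values were seen. Members that passed the filter through a single genotype could hardly change the other way. How many runs would be met by chance was not computed.

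The longest run held 8 genes, all lower in mutants, at both stages. It contained C5H12orf65, kmt5ab, rilpl2, ugt2a5, ythdc1, fktn, ugt2a4 and dnajc25. In stage II mutants all 8 were at 0.511 FPKM or below, and 5 of them were listed at 0 in both libraries. In stage II WT oocytes they lay between 1.54 and 63.5 FPKM. All 8 thus passed the filter through the WT libraries alone, so the filter favoured falls at stage II. Among them, ythdc1, which encodes a nuclear reader of N6-methyladenosine in RNA, had 0.511 and 0.293 FPKM in mutants, against 9.23 and 8.28 FPKM in WT (log2 fold change -2.80 ± 0.28, adjusted p = 0.00011). All 8 were also called lower in mutants at stage I.

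Another run held 6 genes that fell at stage II and not at stage I. It contained atpaf2, tex2l, msrb1b, mlst8, pgp and zdhhc4. All but atpaf2 passed the filter through the WT libraries alone, which favoured falls. Of these, msrb1b, a methionine sulfoxide reductase gene, was listed at 0 and 0 FPKM in mutants, against 37.4 and 37.9 FPKM in WT. The gene mlst8, for a subunit of the mTOR kinase complexes, was listed at 0 and 0 FPKM in mutants, against 13.8 and 20.2 FPKM in WT. The phosphoglycolate phosphatase gene pgp had 0 and 0.0486 FPKM in mutants, against 41.8 and 45.7 FPKM in WT (log2 fold change -5.45 ± 0.11, adjusted p = 1.9e-08). At stage I the same genes stood at 95.4 and 77.1, at 14.4 and 14.7 and at 58.2 and 61.4 FPKM in mutants, all above their WT values of 36.6 and 37.4, 7.98 and 5.22 and 30.4 and 28.8 FPKM. The first gene of the run, atpaf2, differed between its mutant libraries, at 0.148 and 15.3 FPKM in mutants, against 48.7 and 70.5 FPKM in WT.

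A further run of 6 genes that fell was si:ch211-127m7.2, gnaia, fbxl14a, rad52, wnk1a and tmem60. The F-box gene fbxl14a, for a substrate receptor of ubiquitin ligases, was listed at 0 and 0 FPKM in mutants, against 51.9 and 49.3 FPKM in WT, but had 99.9 and 109 FPKM in mutants and 16.9 and 16.4 FPKM in WT at stage I. Likewise rad52, whose yeast counterpart mediates homologous recombination, had 0.791 and 0 FPKM in mutants, against 33.5 and 26.8 FPKM in WT (log2 fold change -4.53 ± 0.26, adjusted p = 6e-06), and 54.8 and 61.0 FPKM in mutants and 1.76 and 1.38 FPKM in WT at stage I. All but tmem60 of the 6 genes were called higher in mutants at stage I. Except for gnaia, the 6 genes passed the filter through the WT stage II libraries alone, which favoured falls.

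A run of 4 genes rose, namely tia1l, dgcr8, trmt2a and atp6v0a2b. The second TIA-1 family gene, tia1l, had 149 and 149.7 FPKM in mutants, against 4.57 and 3.23 FPKM in WT (log2 fold change 4.95 ± 0.12, adjusted p = 5.5e-08). The tRNA methyltransferase gene trmt2a had 58.2 and 51.5 FPKM in mutants, against 0.997 and 1.42 FPKM in WT (log2 fold change 4.66 ± 0.12, adjusted p = 7.4e-08). The gene dgcr8, for the partner of Drosha in microRNA processing, had 35.2 and 31.4 FPKM in mutants, against 9.10 and 9.68 FPKM in WT (log2 fold change 1.72 ± 0.13, adjusted p = 2.4e-05). At stage I tia1l had 213 and 211 FPKM in mutants and 235 and 206 FPKM in WT, and trmt2a had 39.4 and 43.2 FPKM in mutants and 40.3 and 40.1 FPKM in WT, so the WT stage II libraries were lower than the other 6 for both genes. Another run of 4 genes fell alike at both stages (rcn3, tspan4b, srrm2 and thoc6), led by the tetraspanin gene tspan4b with 0.472 and 0.707 FPKM in mutants, against 31.0 and 41.6 FPKM in WT (log2 fold change -4.54 ± 0.18, adjusted p = 8.1e-07).

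**Figure D2:**
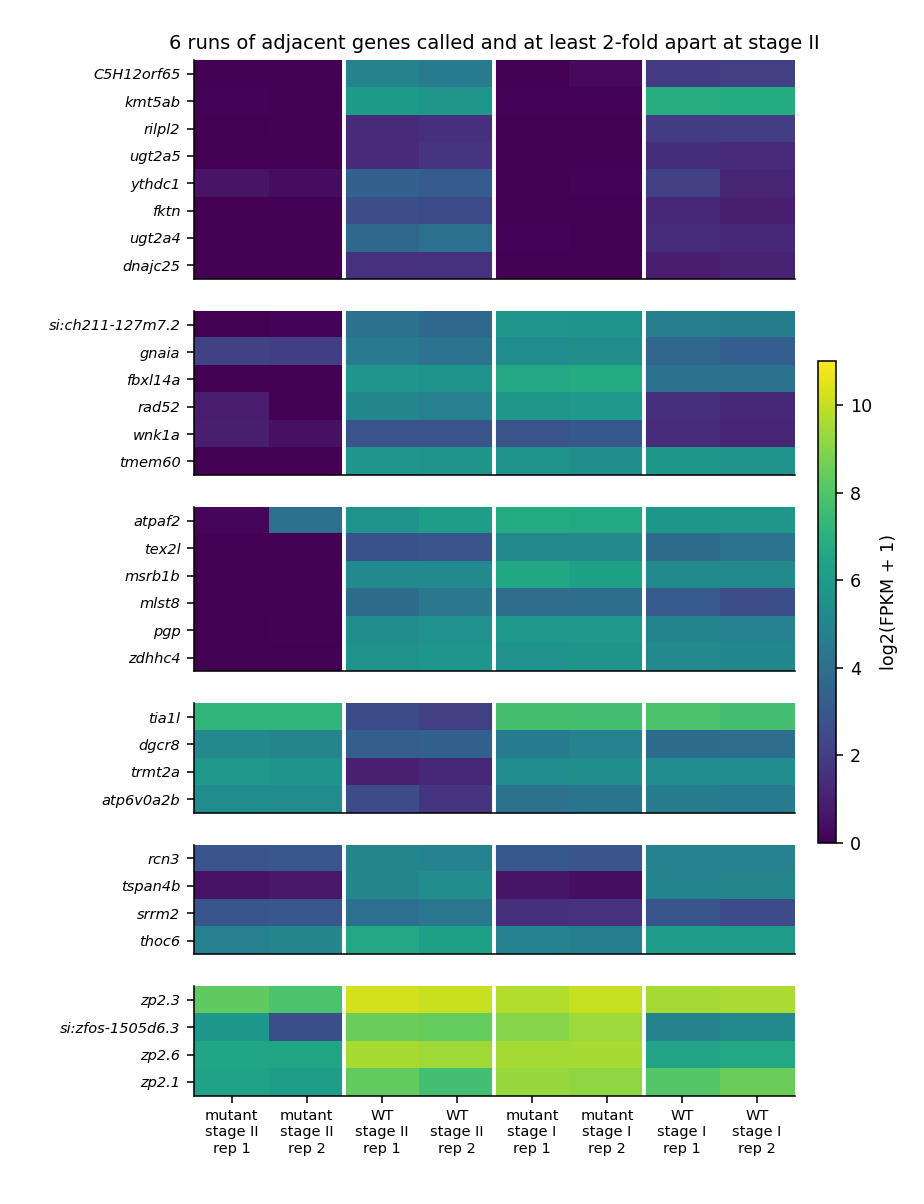
log2(FPKM + 1) (color scale) in the 8 libraries (columns) for 6 of the 22 runs of adjacent genes (rows, in the gene order of GRCz12tu): mutant stage II, WT stage II, mutant stage I and WT stage I, 2 replicates each. The run of 8 genes at the top is dark in all 4 mutant libraries, most genes of the runs of 6 are dark in both mutant stage II libraries, and tia1l and trmt2a are low in WT stage II libraries alone.

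Of the 15 largest rises outside clone names, several were developmental regulators that stood near 0 in WT stage II oocytes. The hairy-related repressor gene her2 had 49.6 and 53.1 FPKM in mutants, against 0.865 and 3.08 FPKM in WT (log2 fold change 4.25 ± 0.30, adjusted p = 1.9e-05). The ephrin ligand gene efna1b had 37.7 and 35.7 FPKM in mutants, against 0.861 and 1.22 FPKM in WT (log2 fold change 4.21 ± 0.16, adjusted p = 7e-07), and was at 1.50 and 1.59 FPKM in mutants and 1.23 and 1.64 FPKM in WT at stage I. The GATA factor gene gata2b, known from blood development, had 27.6 and 23.8 FPKM in mutants, against 0.530 and 0.596 FPKM in WT (log2 fold change 4.09 ± 0.15, adjusted p = 5.3e-07). The orphan nuclear receptor gene nr4a2b had 28.6 and 25.7 FPKM in mutants, against 0.705 and 0.770 FPKM in WT (log2 fold change 4.02 ± 0.14, adjusted p = 4.1e-07), and msgn1, a regulator of presomitic mesoderm in embryos, had 19.9 and 18.1 FPKM in mutants, against 0.574 and 0.639 FPKM in WT (log2 fold change 3.63 ± 0.14, adjusted p = 6.8e-07). Of these, her2, gata2b, nr4a2b and msgn1 were also called higher in mutants at stage I. The AMP deaminase gene ampd1 had 27.2 and 29.6 FPKM in mutants, against 0.727 and 0.913 FPKM in WT. The genes gata2b, nr4a2b, msgn1 and ampd1 passed the filter through the mutant libraries alone, which favoured rises from near 0. The lens crystallin gene cryba1a had 30.2 and 30.9 FPKM in mutants, against 0.139 and 2.26 FPKM in WT. The remaining members of the 15 were SLC35D3, vstm2l and trim35-34, beside the genes ighv14-1, chrnb3b, tia1l, trmt2a and tia1 given above.

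The 15 largest falls were mostly genes off in mutants, which passed the filter through the WT libraries alone, so falls were favoured. Of those not yet described, zfp36l2, which encodes an RNA-binding protein that promotes decay of AU-rich messages, had 0.589 and 0.506 FPKM in mutants, against 47.6 and 50.8 FPKM in WT (log2 fold change -5.02 ± 0.12, adjusted p = 4.5e-08), and was at 27.2 and 30.7 FPKM in mutants and 24.6 and 27.8 FPKM in WT at stage I. The ribosomal protein gene rpl32 had 8.85 and 5.14 FPKM in mutants, against 204 and 294 FPKM in WT (log2 fold change -4.98 ± 0.44, adjusted p = 6.5e-05) and was low in mutants at stage I as well. The tRNA methyltransferase gene thumpd3 had 0.0464 and 0.0454 FPKM in mutants, against 29.4 and 28.1 FPKM in WT (log2 fold change -4.83 ± 0.13, adjusted p = 1.1e-07). The zinc finger gene znf1156 had 0 and 0.0627 FPKM in mutants, against 30.1 and 26.4 FPKM in WT (log2 fold change -4.83 ± 0.15, adjusted p = 2.2e-07). Both of these were on in mutants and near 0 in WT at stage I.

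Germ plasm genes moved in both directions. This group includes genes for the organizer of the Balbiani body, for RNA-binding proteins that keep germ cell messages silent or stable, and for Tudor and Vasa proteins of germ granules. Of 31 gene IDs, 24 passed the filter on levels and were tested. Of these, 10 rose (41.7%, against 27.0% over all genes), 4 fell (16.7%, against 20.3%) and 10 did not pass. With median-of-ratios scaling 7 rose and 4 fell, and with quantile normalization 12 and 3. The median log2 fold change was 0.17, against 0.07 over all genes tested. The translational repressor gene nanos3 had 146 and 145 FPKM in mutants, against 44.0 and 41.5 FPKM in WT (log2 fold change 1.75 ± 0.065, adjusted p = 5.3e-07). It was higher in mutants at stage I too, at 352 and 337 FPKM in mutants and 77.8 and 79.8 FPKM in WT. The gene dnd1, for an RNA-binding protein that protects germ cell messages from microRNAs, had 41.6 and 38.8 FPKM in mutants, against 72.2 and 67.7 FPKM in WT (log2 fold change -0.78 ± 0.086, adjusted p = 0.00019), and at stage I it was at 58.6 and 64.0 FPKM in mutants and 60.6 and 66.8 FPKM in WT. In both genes the mutant and WT libraries lay far apart relative to their replicates, nanos3 higher and dnd1 lower in mutants.

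The Balbiani body organizer gene buc had 629 and 582 FPKM in mutants, against 439 and 497 FPKM in WT (log2 fold change 0.37 ± 0.094, adjusted p = 0.012). Its call was lost on leaving out a library, where the adjusted p reached 0.085. The Tudor gene tdrd6, whose protein binds Bucky ball in germ granules, had 71.9 and 68.2 FPKM in mutants, against 47.2 and 46.5 FPKM in WT (log2 fold change 0.57 ± 0.081, adjusted p = 0.00074), and this call was kept. The gene dazl, for a germ cell translation activator, had 42.7 and 38.5 FPKM in mutants, against 49.4 and 53.8 FPKM in WT (log2 fold change -0.34 ± 0.093, adjusted p = 0.018, up to 0.11 without a library). The vasa gene ddx4 had a log2 fold change of -0.18 ± 0.12 (adjusted p = 0.27), and tdrd7a, another Tudor gene, one of -0.12 ± 0.10 (adjusted p = 0.39). Thus tdrd6 was higher in both mutant libraries, dazl was a little lower and ddx4 and tdrd7a were not called. Of the 2 gene IDs named hook2, which encode adaptors of the dynein motor, the first had 23.2 and 19.1 FPKM in mutants, against 7.92 and 3.65 FPKM in WT (log2 fold change 1.78 ± 0.27, adjusted p = 0.0011) and the second 15.7 and 16.2 FPKM in mutants, against 6.45 and 8.13 FPKM in WT (log2 fold change 1.04 ± 0.14, adjusted p = 0.00051). Reads may be shared between these copies.

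The piRNA pathway, which silences transposons in germ cells, was split as well. Of 17 genes tested from 18 IDs, 6 rose (35.3%, against 27.0% over all genes), 3 fell (17.65%, against 20.3%) and 8 did not pass. Their median log2 fold change was 0.13. Both Piwi genes rose. The first, piwil1 (ziwi), had 49.7 and 48.0 FPKM in mutants, against 33.3 and 33.3 FPKM in WT (log2 fold change 0.54 ± 0.075, adjusted p = 0.00069), and piwil2 (zili) had 60.4 and 63.4 FPKM in mutants, against 33.2 and 37.1 FPKM in WT (log2 fold change 0.80 ± 0.15, adjusted p = 0.0028). The scaffold gene tdrd1 had 73.8 and 65.05 FPKM in mutants, against 30.6 and 26.5 FPKM in WT (log2 fold change 1.25 ± 0.11, adjusted p = 7.4e-05). The helicase gene tdrd9 had 33.4 and 29.3 FPKM in mutants, against 17.8 and 19.1 FPKM in WT. Against these rises, tdrd5 fell to 5.28 and 5.51 FPKM in mutants, against 46.9 and 46.1 FPKM in WT (log2 fold change -2.89 ± 0.096, adjusted p = 3.1e-07). The genes exd1, with 52.3 and 55.0 FPKM in mutants, against 118 and 102 FPKM in WT, and henmt1, for the enzyme that methylates piRNA ends, with 29.6 and 29.7 FPKM in mutants, against 58.3 and 48.0 FPKM in WT, fell too. Each of the 9 calls was kept without each stage II library.

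**Figure D3:**
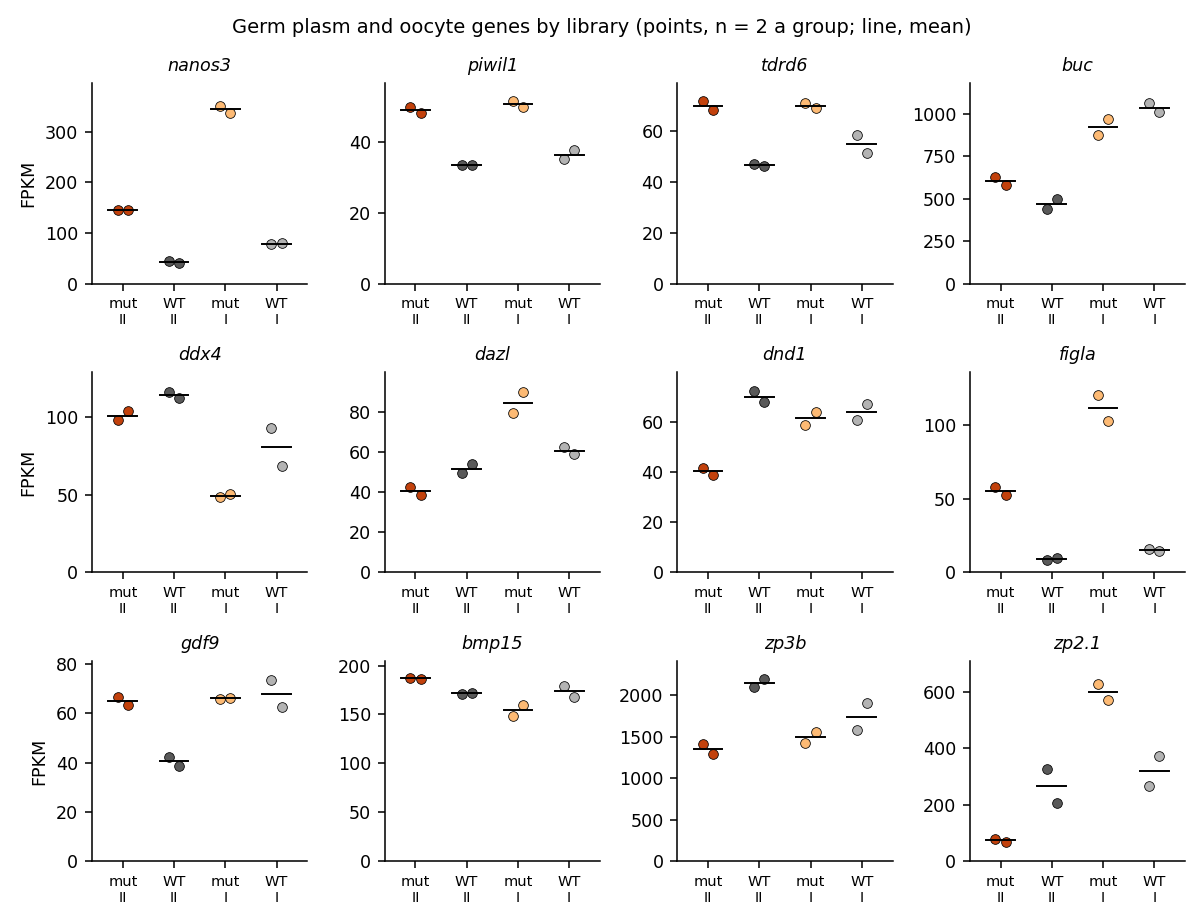
FPKM by library for 12 germ plasm and oocyte genes in mutant and WT stage II oocytes and, to their right, in mutant and WT stage I oocytes (points, 2 libraries a group; lines, means; each panel has its own axis from 0). At stage II nanos3, piwil1, tdrd6, figla and gdf9 lie higher and dnd1, zp3b and zp2.1 lower in mutants than in WT. By smaller amounts, buc and bmp15 lie higher and ddx4 and dazl lower. Mutant and WT stage II libraries do not overlap in any of the 12 genes, as in 76.7% of all genes tested.

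Genes of meiotic prophase stood at low levels, as 12 of the 26 IDs did not pass the filter. Of the 14 tested, 4 rose and 4 fell (28.6% each, against 27.0% and 20.3% over all genes). The gene sycp3, for a protein of the synaptonemal complex that joins paired chromosomes, had 11.5 and 11.7 FPKM in mutants, against 1.59 and 0.511 FPKM in WT (log2 fold change 2.67 ± 0.25, adjusted p = 8.3e-05). Its partner gene sycp1 had 7.46 and 6.17 FPKM in mutants, against 2.81 and 3.18 FPKM in WT (log2 fold change 0.96 ± 0.16, adjusted p = 0.0017). The mismatch repair gene mlh3 fell to 1.18 and 1.11 FPKM in mutants, against 5.46 and 6.41 FPKM in WT, and the meiotic cohesin gene stag3 to 4.09 and 2.90 FPKM in mutants, against 7.97 and 9.43 FPKM in WT.

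Transcription factors of the oocyte were led by figla, a regulator that in the mouse activates the zona pellucida genes. It had 57.8 and 52.7 FPKM in mutants, against 8.35 and 10.04 FPKM in WT (log2 fold change 2.47 ± 0.12, adjusted p = 2.3e-06), and 121 and 103 FPKM in mutants and 15.6 and 14.4 FPKM in WT at stage I. Of 20 genes tested in this group, 6 rose (30%, against 27.0% over all genes), 3 fell (15%, against 20.3%) and 11 did not pass. The gene pou5f3, a maternal activator of the zygotic genome, had 31.5 and 27.7 FPKM in mutants, against 10.02 and 10.6 FPKM in WT (log2 fold change 1.43 ± 0.16, adjusted p = 0.00021). Another such activator, sox19b, had 44.4 and 38.8 FPKM in mutants, against 25.7 and 21.8 FPKM in WT (log2 fold change 0.78 ± 0.13, adjusted p = 0.0015). The 2 genes for transcription factor IIIA, which drives 5S rRNA synthesis, went opposite ways. The first, gtf3ab, fell to 0.134 and 0 FPKM in mutants, against 24.9 and 32.2 FPKM in WT (log2 fold change -4.78 ± 0.17, adjusted p = 4.1e-07), and gtf3aa rose to 54.9 and 55.3 FPKM in mutants, against 42.3 and 42.9 FPKM in WT (log2 fold change 0.36 ± 0.076, adjusted p = 0.0052).

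Zona pellucida genes, which encode the fibrous proteins of the egg coat, were mostly lower in mutants. All 23 IDs were tested, 3 rose (13.0%, against 27.0% over all genes), 13 fell (56.5%, against 20.3%) and 7 did not pass. The median log2 fold change was -0.53. As a share of all FPKM they made up 2.78% and 2.67% in mutant libraries and 3.97% and 3.82% in WT libraries. The largest falls were in a cluster of zp2 genes. The gene zp2.6 had 87.7 and 87.1 FPKM in mutants, against 759 and 692 FPKM in WT (log2 fold change -3.04 ± 0.09, adjusted p = 1.6e-07). The gene zp2.3 in the same cluster had 313 and 238 FPKM in mutants, against 1217 and 1082 FPKM in WT (log2 fold change -2.07 ± 0.14, adjusted p = 1.7e-05). The gene zp2.1 had 79.5 and 68.3 FPKM in mutants, against 327 and 207 FPKM in WT (log2 fold change -1.81 ± 0.22, adjusted p = 0.00031). These 3 lie in a run of 4 adjacent genes with si:zfos-1505d6.3, and at stage I zp2.6 was higher in mutants, at 742 and 747 FPKM in mutants and 84.4 and 100.0 FPKM in WT. Falls were smaller in zpax4, with 1386 and 1255 FPKM in mutants, against 2393 and 2333 FPKM in WT (log2 fold change -0.84 ± 0.10, adjusted p = 0.00032). Also smaller was the fall of zp3b, which had 1409 and 1294 FPKM in mutants, against 2103 and 2190 FPKM in WT (log2 fold change -0.67 ± 0.11, adjusted p = 0.0018). The zp2 and zp3.2 genes have near-identical copies, so the split of reads among them is uncertain. Of the 13 falls, 11 kept their calls without each stage II library.

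Genes for egg activation, cortical granules and maternal effects showed no common direction. Of 28 tested, 7 rose (25%, against 27.0% over all genes), 9 fell (32.1%, against 20.3%) and 12 did not pass. The median log2 fold change of -0.01 changed sign with quantile normalization. The gene btg4, for an adaptor that directs maternal messages to decay, rose to 491 and 423 FPKM in mutants, against 265 and 263 FPKM in WT (log2 fold change 0.79 ± 0.10, adjusted p = 0.00052). The histone message binding protein gene slbp had 406 and 443 FPKM in mutants, against 279 and 250.2 FPKM in WT (log2 fold change 0.68 ± 0.085, adjusted p = 0.0004). The DNA methyltransferase gene dnmt1 had 280.3 and 265 FPKM in mutants, against 173 and 191 FPKM in WT (log2 fold change 0.58 ± 0.096, adjusted p = 0.0016). The histone chaperone gene npm2b fell to 973 and 997 FPKM in mutants, against 1605 and 1540 FPKM in WT (log2 fold change -0.67 ± 0.11, adjusted p = 0.0012). The chromosomal passenger gene birc5b was listed at 0 and 0 FPKM in mutants, against 11.8 and 14.8 FPKM in WT. At stage I birc5b was at 0.549 and 0.182 FPKM in mutants and 573 and 689 FPKM in WT.

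Of 72 genes tested for storage and decay of maternal messages, 23 rose, 11 fell and 38 did not pass, with a median log2 fold change of 0.18. Their rises (31.9%) and falls (15.3%) were not far from the 27.0% and 20.3% of all genes. Besides tia1l, tia1 and zfp36l2, the helicase gene ddx6, for a core protein of RNA storage granules, had 13.1 and 11.1 FPKM in mutants, against 4.96 and 4.83 FPKM in WT (log2 fold change 1.15 ± 0.20, adjusted p = 0.0021). The deadenylase scaffold gene cnot1 fell to 3.11 and 2.61 FPKM in mutants, against 8.31 and 11.7 FPKM in WT (log2 fold change -1.50 ± 0.19, adjusted p = 0.00044).

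For meiotic arrest and maturation, 6 of 35 genes tested rose and 6 fell (17.1% each, against 27.0% and 20.3% over all genes). None of the 6 falls kept its call without each stage II library. The largest, wee2, for an oocyte kinase that holds Cdk1 inactive, had 15.7 and 15.9 FPKM in mutants, against 49.4 and 55.3 FPKM in WT (log2 fold change -1.67 ± 0.59, adjusted p = 0.046, up to 0.16 without a library). Spindle and kinetochore genes had 14 rises (22.6%) and 15 falls (24.2%) among 62 tested, against 27.0% and 20.3% over all genes. With median-of-ratios scaling 9 rose and 21 fell, and with quantile normalization 14 and 17. Separase, encoded by espl1, which frees sister chromatids, had 19.7 and 19.7 FPKM in mutants, against 7.47 and 7.45 FPKM in WT (log2 fold change 1.29 ± 0.14, adjusted p = 0.0002). The checkpoint gene bub3 had 140.5 and 138 FPKM in mutants, against 246 and 237 FPKM in WT (log2 fold change -0.79 ± 0.12, adjusted p = 0.00087). The kinetochore gene spc24 had 35.8 and 36.5 FPKM in mutants, against 86.4 and 72.4 FPKM in WT (log2 fold change -1.11 ± 0.096, adjusted p = 5.4e-05).

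DNA repair genes had 17 rises (21.8%, against 27.0% over all genes) and 16 falls (20.5%, against 20.3%) among 78 tested. Their median log2 fold change of 0.07 changed sign with median-of-ratios scaling, which gave 11 rises and 22 falls. Quantile normalization gave 12 and 20, so the balance depended on scaling. Besides rad52, which was close to 0 in mutants, the excision repair gene ercc8 had 15.2 and 16.7 FPKM in mutants, against 5.14 and 3.75 FPKM in WT (log2 fold change 1.65 ± 0.16, adjusted p = 9.3e-05). Another excision repair gene, xpa, had 11.1 and 13.5 FPKM in mutants, against 3.97 and 4.54 FPKM in WT (log2 fold change 1.33 ± 0.16, adjusted p = 0.0003). For DNA replication and nucleotide supply, 16 of 54 genes rose (29.6%, against 27.0% over all genes) and 8 fell (14.8%, against 20.3%). With median-of-ratios scaling 10 rose and 9 fell, and the median log2 fold change went from 0.016 to -0.077. The licensing inhibitor gene gmnn (geminin) had 1298 and 1381 FPKM in mutants, against 849.8 and 692 FPKM in WT (log2 fold change 0.80 ± 0.11, adjusted p = 0.00061), and mcm6l, for a subunit of the replicative helicase, 76.5 and 74.7 FPKM in mutants, against 27.3 and 38.7 FPKM in WT (log2 fold change 1.19 ± 0.14, adjusted p = 0.00028). Of the 2 IDs named rrm2, for the small subunit of ribonucleotide reductase, the first had 278 and 268 FPKM in mutants, against 485 and 498 FPKM in WT (log2 fold change -0.85 ± 0.072, adjusted p = 5.1e-05) and the second 349 and 327 FPKM in mutants, against 283 and 214 FPKM in WT (log2 fold change 0.46 ± 0.14, adjusted p = 0.028). The second copy was at 766 and 694 FPKM in mutants and 1.06 and 1.51 FPKM in WT at stage I.

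Genes of the translation machinery had more falls than rises. Of 82 cytosolic ribosomal protein genes tested, 1 rose, 51 fell and 30 did not pass, against 20.3% falls over all genes. The median log2 fold change was -0.39, and 73 of the 82 had a negative value. The count depended on scaling, with 32 falls and 7 rises under quantile normalization and 47 falls and 0 rises under median-of-ratios scaling, and 25 of the 51 falls kept their calls without each stage II library. As a share of all FPKM these genes made up 6.70% and 7.27% in mutant libraries and 9.26% and 8.15% in WT libraries, so WT replicate 1 stood highest. After rpl32, the largest falls that passed the test were in rpl19, with 867 and 853 FPKM in mutants, against 1667 and 1482 FPKM in WT (log2 fold change -0.87 ± 0.10, adjusted p = 0.00029), and in rps15a, with 545 and 571 FPKM in mutants, against 1022 and 898 FPKM in WT (log2 fold change -0.78 ± 0.10, adjusted p = 0.00056). These were falls of less than 2-fold at high levels, and rpl32 was the only ribosomal protein gene with a 2-fold call. Highly expressed genes fell more often in general, as given above by expression level. The part of that in the ribosomal result, or in the other lists with more falls than rises, was not tested.

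Translation factors followed the same direction, with 6 rises (9.38%, against 27.0% over all genes) and 34 falls (53.1%, against 20.3%) among 64 tested. Their median log2 fold change was -0.27. The initiation factor gene eif3k had 76.9 and 83.0 FPKM in mutants, against 163 and 151.4 FPKM in WT (log2 fold change -0.97 ± 0.076, adjusted p = 3.4e-05). The gene eif2b1, for a subunit of the exchange factor of eIF2, had 48.9 and 47.5 FPKM in mutants, against 86.9 and 89.5 FPKM in WT (log2 fold change -0.86 ± 0.076, adjusted p = 6.2e-05). The cap-binding protein gene eif4ea had 38.3 and 34.6 FPKM in mutants, against 67.0 and 62.8 FPKM in WT (log2 fold change -0.82 ± 0.078, adjusted p = 9.2e-05). Mitochondrial ribosomal protein genes had 7 rises (9.86%) and 23 falls (32.4%) among 71 tested, against 27.0% and 20.3% over all genes. Among the falls, mrpl38 had 39.3 and 32.2 FPKM in mutants, against 69.4 and 62.7 FPKM in WT (log2 fold change -0.87 ± 0.11, adjusted p = 0.00042). In the other direction, mrpl23 had 52.9 and 58.0 FPKM in mutants, against 18.7 and 16.6 FPKM in WT (log2 fold change 1.60 ± 0.11, adjusted p = 1.5e-05).

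Respiratory chain genes encoded in the nucleus had more falls than rises, and those of mitochondrial DNA had rises and no falls, but the difference between the groups was not tested. Of 86 nuclear-encoded genes tested, 4 rose (4.65%, against 27.0% over all genes) and 34 fell (39.5%, against 20.3%), with a median log2 fold change of -0.21. The gene ndufs5, for a subunit of complex I, had 138 and 159.7 FPKM in mutants, against 290.0 and 255 FPKM in WT (log2 fold change -0.87 ± 0.12, adjusted p = 0.00062). Of the 13 protein-coding genes of mitochondrial DNA, 5 rose (38.5%, against 27.0% over all genes) and 0 fell (against 20.3%). All 13 fold changes were positive, with a median of 0.50. These transcripts made up 1.76% and 1.83% of all FPKM in mutant libraries and 1.24% and 1.30% in WT libraries. Only mt-nd1, for another complex I subunit, kept its call without each stage II library, at 380.1 and 394 FPKM in mutants, against 213 and 255 FPKM in WT (log2 fold change 0.73 ± 0.14, adjusted p = 0.004). The cytochrome oxidase gene mt-co1 had 2252 and 2050 FPKM in mutants, against 1230 and 1439 FPKM in WT (log2 fold change 0.69 ± 0.22, adjusted p = 0.033, up to 0.16 without a library).

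Genes for protein folding in the endoplasmic reticulum (ER) and for protein breakdown had more falls than rises. Of 48 genes for ER chaperones and the unfolded protein response, 5 rose (10.4%, against 27.0% over all genes), 24 fell (50%, against 20.3%) and 19 did not pass. Their median log2 fold change was -0.28, and 17 of the falls were kept without each stage II library. The Hsp40 co-chaperone gene dnajb9b had 12.9 and 12.6 FPKM in mutants, against 52.5 and 48.8 FPKM in WT (log2 fold change -1.91 ± 0.14, adjusted p = 2.3e-05). The BiP exchange factor gene sil1 had 28.9 and 26.0 FPKM in mutants, against 61.7 and 64.4 FPKM in WT (log2 fold change -1.17 ± 0.11, adjusted p = 7.1e-05). The protein disulfide isomerase gene p4hb had 54.8 and 77.5 FPKM in mutants, against 147 and 122 FPKM in WT (log2 fold change -1.03 ± 0.15, adjusted p = 0.001). The ER protein gene sdf2l1 had 55.7 and 53.5 FPKM in mutants, against 108 and 116 FPKM in WT (log2 fold change -1.02 ± 0.071, adjusted p = 1.7e-05). These 4 are among 35 of the 48 genes that were lower in both mutant libraries than in both WT libraries, while 7 were higher in both. Over all genes tested, 32.9% were lower and 43.8% higher in this way. Proteasome genes had 3 rises (5.77%, against 27.0% over all genes) and 22 falls (42.3%, against 20.3%) among 52 tested, with a median of -0.20. The gene psmb5, for a catalytic subunit, had 29.1 and 33.2 FPKM in mutants, against 56.9 and 67.3 FPKM in WT (log2 fold change -0.97 ± 0.10, adjusted p = 0.00015). Cytosolic chaperones were mixed, with 10 rises (22.7%) and 12 falls (27.3%) among 44 tested, against 27.0% and 20.3% over all genes. The heat-inducible hsp70.1 had 0.204 and 0.697 FPKM in mutants, against 4.89 and 2.28 FPKM in WT (log2 fold change -1.62 ± 0.34, adjusted p = 0.0053).

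**Figure D4:**
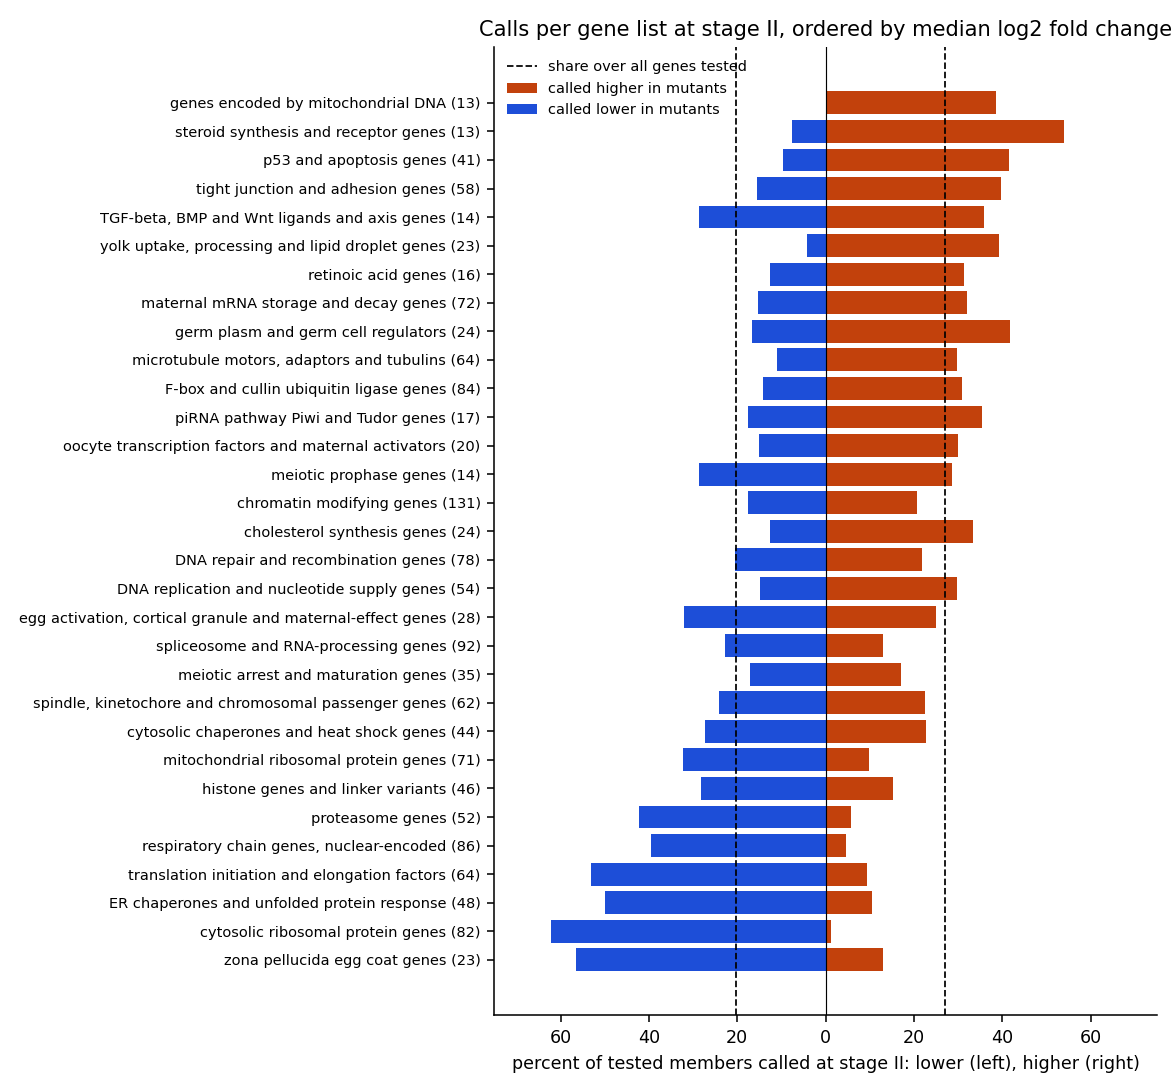
Percent of tested members called higher (right) and lower (left) in mutant stage II oocytes for each gene list with at least 10 tested members, other-cell-type markers left out; the number tested is in brackets and lists run from the highest median log2 fold change at the top to the lowest at the bottom. Dashed lines mark the shares over all 13062 genes, 27.0% higher and 20.3% lower; the ribosomal, zona pellucida, translation and ER lists reach furthest to the left.

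Genes for steroid synthesis and steroid receptors had more rises than falls. Of 13 genes tested from 33 IDs, 7 rose (53.85%, against 27.0% over all genes), 1 fell (7.69%, against 20.3%) and 5 did not pass. Their median log2 fold change was 0.45. The side-chain cleavage enzyme gene cyp11a1, which starts steroid synthesis from cholesterol, had 278 and 260.5 FPKM in mutants, against 53.5 and 82.4 FPKM in WT (log2 fold change 2.00 ± 0.17, adjusted p = 5.3e-05). At stage I it was near 0 in mutants, at 0.152 and 0.0626 FPKM in mutants and 221 and 203 FPKM in WT. The next enzyme genes of the pathway rose too, hsd3b2 to 132 and 124 FPKM in mutants, against 39.5 and 43.0 FPKM in WT (log2 fold change 1.61 ± 0.077, adjusted p = 2.3e-06), and cyp17a1 to 73.3 and 69.2 FPKM in mutants, against 33.97 and 34.9 FPKM in WT (log2 fold change 1.03 ± 0.074, adjusted p = 2.1e-05). The estrogen receptor gene esr2a had 5.16 and 5.59 FPKM in mutants, against 0.936 and 1.078 FPKM in WT (log2 fold change 1.67 ± 0.15, adjusted p = 6.3e-05). In contrast to cyp11a1, hsd3b2 and cyp17a1 were also higher in mutants at stage I.

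Both cyp11a1 and cyp17a1 also stand among 22 markers of granulosa and theca cells, the follicle cells around the oocyte. Of these 22, 6 passed the filter and were tested, 3 rose and 1 fell, against 27.0% rises and 20.3% falls over all genes. The gonadotropin receptor fshr was listed at 0 in all 4 stage II libraries, and lhcgr, cyp19a1a and amh were under 0.2 FPKM in each. Summed over the list, the level was 364 and 353 FPKM in mutant and 99.8 and 129 FPKM in WT libraries, most of it from cyp11a1 and cyp17a1. Other tested markers were low, with krt18a.1 at 6.24 and 11.5 FPKM in mutants, against 3.30 and 3.77 FPKM in WT, and gsdf at 0.839 and 2.79 FPKM in mutants, against 5.41 and 4.39 FPKM in WT. In bulk libraries, fewer cells of a type and less RNA per cell cannot be told apart.

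Most leukocyte markers that could be tested stood higher in mutants, many of them at low levels. Of 31 markers, 10 were tested, 9 rose and 0 fell, against 27.0% rises and 20.3% falls over all genes. Their median log2 fold change was 0.89. The markers coro1a, cd4-1, cd74a, cd74b, zap70, il1b and grn1 were under 1 FPKM in both WT libraries. They passed the filter through the mutant libraries alone, so the filter favoured rises and the count is no evidence for a group change. The untested lyz ran the other way, at 0 and 0 FPKM in mutants, against 0.584 and 0.460 FPKM in WT. The sum was 1359 and 1361 FPKM in mutant and 1075 and 986 FPKM in WT libraries, of which the cathepsin gene ctss2.1 alone held 1275 and 1271 FPKM in mutant and 1023 and 934 FPKM in WT libraries. The number of markers at 1 FPKM or more was 11 and 13 in mutant libraries and 3 in each WT library. The actin-binding gene coro1a had 3.22 and 3.84 FPKM in mutants, against 0.472 and 0.480 FPKM in WT (log2 fold change 1.61 ± 0.17, adjusted p = 0.00017). The gene cd4-1 had 1.93 and 2.53 FPKM in mutants, against 0 and 0.199 FPKM in WT (log2 fold change 1.55 ± 0.18, adjusted p = 0.00023). The macrophage gene mpeg1.1 was listed at 0 in all 4 libraries, and the pan-leukocyte gene ptprc and the granulocyte gene mpx were under 0.2 FPKM in each. The part of leukocytes in the genotype difference was not tested.

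Markers of other cell types were followed as well, and over all genes tested 27.0% rose and 20.3% fell. Markers that passed the filter through a single genotype could hardly change the other way. In the stroma list these were cnn1b and fn1a, through the mutant libraries, and col1a1a and kdrl, through the WT libraries. Stroma, smooth muscle and endothelium markers (32 IDs, 10 tested, 4 higher and 2 lower) summed to 32.1 and 40.9 FPKM in mutant and 25.5 and 25.5 FPKM in WT libraries. Blood markers (19 IDs, 4 tested, 1 higher and 2 lower) summed to 42.1 and 41.7 FPKM in mutant and 62.1 and 62.5 FPKM in WT libraries, most of it tspo. Liver markers, with the vitellogenins, summed to 4.65 and 7.40 FPKM in mutant and 3.56 and 4.26 FPKM in WT libraries, and 1 of 22 was tested (rbp4, lower). Of 13 testis and sperm markers tested from 30 IDs, 3 rose and 4 fell, and the list summed to 204 and 200.4 FPKM in mutant and 137 and 137 FPKM in WT libraries. Among these spata18, for a protein of mitochondrial quality control in human cells, had 114 and 112 FPKM in mutants, against 12.4 and 11.4 FPKM in WT (log2 fold change 3.15 ± 0.083, adjusted p = 7.4e-08), and it was about as far apart at stage I, at 183 and 173 FPKM in mutants and 19.5 and 21.5 FPKM in WT. The higher sum in mutants came from spata18, and the rest of the list summed lower in mutants than in WT. The largest of the rest, odf3l2a, had 41.7 and 43.9 FPKM in mutants, against 70.6 and 80.5 FPKM in WT.

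Lipid and vitamin A genes had more rises than falls, as did all genes tested, and the gap was widest for yolk and lipid droplets. Of 23 genes for yolk uptake, yolk processing and lipid droplets tested, 9 rose (39.1%, against 27.0% over all genes) and 1 fell (4.35%, against 20.3%), with a median log2 fold change of 0.19. With median-of-ratios scaling 5 rose and 1 fell, and with quantile normalization 10 and 1. This list had 24 and 25 IDs at 1 FPKM or more in mutant libraries and 21 and 22 in WT libraries. Members that passed the filter through the mutant libraries alone, such as apoeb and ctsk, could hardly fall. Their part in the share of rises was not tested. The receptor chaperone gene lrpap1, which escorts lipoprotein receptors, had 85.95 and 78.9 FPKM in mutants, against 21.2 and 34.6 FPKM in WT (log2 fold change 1.57 ± 0.18, adjusted p = 0.00028). The lipoprotein receptor gene scarb1 had 551 and 527 FPKM in mutants, against 399 and 406 FPKM in WT (log2 fold change 0.42 ± 0.07, adjusted p = 0.0018). Of 24 cholesterol synthesis genes, 8 rose (33.3%) and 3 fell (12.5%), shares closer to those of all genes. The squalene epoxidase gene sqlea had 4.67 and 4.31 FPKM in mutants, against 0.278 and 0.306 FPKM in WT (log2 fold change 2.09 ± 0.15, adjusted p = 1.9e-05). It passed the filter through the mutant libraries alone, which favoured a rise. The lanosterol synthase gene lss had 4.13 and 5.01 FPKM in mutants, against 1.29 and 0.752 FPKM in WT (log2 fold change 1.47 ± 0.19, adjusted p = 0.00046), while hmgcrb, for a copy of the rate-limiting reductase, fell to 19.1 and 21.6 FPKM in mutants, against 33.5 and 35.1 FPKM in WT (log2 fold change -0.73 ± 0.12, adjusted p = 0.0018). Of 16 retinoic acid genes, 5 rose (31.2%) and 2 fell (12.5%). Among them dhrs3b passed the filter through the mutant libraries alone and rxrgb through the WT libraries alone. The retinoic acid degrading enzyme gene cyp26a1 had 49.7 and 47.5 FPKM in mutants, against 7.95 and 6.74 FPKM in WT (log2 fold change 2.58 ± 0.12, adjusted p = 2.4e-06). The gene bco1, for the enzyme that cleaves beta-carotene, had 36.5 and 36.3 FPKM in mutants, against 17.97 and 18.7 FPKM in WT (log2 fold change 0.95 ± 0.13, adjusted p = 0.00065).

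Among 14 genes for TGF-beta, BMP and Wnt ligands and axis factors, 5 rose (35.7%, against 27.0% over all genes) and 4 fell (28.6%, against 20.3%). Of the rises, wnt8a and rspo3 passed the filter through the mutant libraries alone, so the filter favoured them. The list had 13 and 14 IDs at 1 FPKM or more in mutant libraries and 11 and 12 in WT libraries. The oocyte ligand gdf9 had 66.5 and 63.3 FPKM in mutants, against 42.3 and 38.8 FPKM in WT (log2 fold change 0.67 ± 0.093, adjusted p = 0.00067), while its partner bmp15 did not pass (log2 fold change 0.12 ± 0.068, adjusted p = 0.17). The maternal dorsal determinant gene hwa (huluwa) had 36.8 and 42.2 FPKM in mutants, against 59.1 and 57.1 FPKM in WT (log2 fold change -0.55 ± 0.12, adjusted p = 0.0068), and grip2a, for a vegetal factor that acts on the cytoskeleton of the early embryo, had 16.1 and 15.7 FPKM in mutants, against 26.5 and 25.1 FPKM in WT (log2 fold change -0.67 ± 0.13, adjusted p = 0.004). At stage I hwa and grip2a were higher in mutants, and the difference between the stages was called for both (-0.99 ± 0.17 for hwa and -1.20 ± 0.19 for grip2a).

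Genes of the p53 pathway and of apoptosis rose more often than they fell. Of 41 tested, 17 rose (41.5%, against 27.0% over all genes), 4 fell (9.76%, against 20.3%) and 20 did not pass. Their median log2 fold change was 0.36. The BH3-only gene pmaip1 (noxa), which promotes cell death, had 307 and 307 FPKM in mutants, against 123 and 129 FPKM in WT (log2 fold change 1.28 ± 0.079, adjusted p = 9.4e-06). The gene mcl1b, which opposes it, had 62.4 and 58.7 FPKM in mutants, against 31.6 and 25.3 FPKM in WT (log2 fold change 1.07 ± 0.11, adjusted p = 0.00015). The caspase gene casp6a had 8.16 and 8.23 FPKM in mutants, against 0.636 and 0.608 FPKM in WT (log2 fold change 2.50 ± 0.23, adjusted p = 7.8e-05). It passed the filter through the mutant libraries alone, which favoured a rise. The list had 40 and 41 IDs at 1 FPKM or more in mutant libraries and 38 and 37 in WT libraries. The stress gene gadd45ga had 23.4 and 13.1 FPKM in mutants, against 5.18 and 7.12 FPKM in WT (log2 fold change 1.39 ± 0.27, adjusted p = 0.0034). Both a promoter and an inhibitor of cell death were thus among the rises.

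Histone genes showed 7 rises (15.2%, against 27.0% over all genes) and 13 falls (28.3%, against 20.3%) among 46 tested. Many were near-identical copies, however, whose reads could be split among them. The list had 37 and 39 IDs at 1 FPKM or more in mutant libraries and 46 and 46 in WT libraries. Members that passed the filter through the WT libraries alone could hardly rise, and their part in the share of falls was not tested. Of the IDs named hist1h4l, the highest in WT was listed at 0 and 0 FPKM in mutants, against 29.3 and 12.6 FPKM in WT. The H2A gene hist1h2a2 had 14.1 and 14.1 FPKM in mutants, against 1.37 and 1.62 FPKM in WT (log2 fold change 2.597 ± 0.16, adjusted p = 1e-05). Chromatin modifying genes had 27 rises (20.6%, against 27.0% over all genes) and 23 falls (17.6%, against 20.3%) among 131 tested. Their median of 0.09 changed sign with median-of-ratios scaling, which gave 22 rises and 28 falls. The arginine methyltransferase gene prmt7 was listed at 0 and 0 FPKM in mutants, against 27.0 and 21.4 FPKM in WT. The remodeller gene smarcad1a had 14.6 and 16.4 FPKM in mutants, against 65.5 and 72.4 FPKM in WT (log2 fold change -2.09 ± 0.10, adjusted p = 2.3e-06). The deacetylase gene sirt7 had 2.00 and 2.17 FPKM in mutants, against 12.7 and 14.5 FPKM in WT (log2 fold change -2.24 ± 0.17, adjusted p = 3.1e-05). Both fell in mutants at stage I too.

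Microtubule motor, adaptor and tubulin genes had 19 rises and 7 falls among 64 tested, with a median of 0.16. Their rises were 29.7%, near the 27.0% of all genes, and their falls 10.9%, against 20.3%. The kinesin gene kif7, known for its role at the tip of cilia in Hedgehog signalling, had 276 and 285 FPKM in mutants, against 22.6 and 27.9 FPKM in WT (log2 fold change 3.43 ± 0.10, adjusted p = 1.6e-07). The dynein regulator gene ndel1a had 6.17 and 6.94 FPKM in mutants, against 0.928 and 1.17 FPKM in WT (log2 fold change 1.88 ± 0.16, adjusted p = 5.4e-05). F-box and cullin ligase genes had 26 rises (31.0%) and 12 falls (14.3%) among 84 tested, not far from the 27.0% and 20.3% of all genes. The fall of fbxl14a was the widest of these, and fbxw8 was among the rises, at 8.45 and 10.8 FPKM in mutants, against 4.31 and 3.54 FPKM in WT (log2 fold change 1.11 ± 0.16, adjusted p = 0.00088). Spliceosome genes had 12 rises (13.0%) and 21 falls (22.8%) among 92 tested, against 27.0% and 20.3% over all genes. The list was led by the splicing factor gene srsf7b with 2.09 and 2.38 FPKM in mutants, against 18.4 and 17.8 FPKM in WT (log2 fold change -2.56 ± 0.20, adjusted p = 2.9e-05) and followed by srsf3b with 106 and 119 FPKM in mutants, against 223 and 186 FPKM in WT (log2 fold change -0.85 ± 0.10, adjusted p = 0.00034).

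Tight junction and adhesion genes had 23 rises (39.7%, against 27.0% over all genes) and 9 falls (15.5%, against 20.3%) among 58 tested. Their median was 0.27, and 12 of the rises were at least 2-fold, where 7.57% of all genes tested had such a rise. The list had 55 and 58 IDs at 1 FPKM or more in mutant libraries and 50 and 49 in WT libraries. Members that passed the filter through the mutant libraries alone could hardly fall, and their part in the share of rises was not tested. One of them, the cadherin gene cdh4, had 5.07 and 4.45 FPKM in mutants, against 0.444 and 0.585 FPKM in WT (log2 fold change 1.93 ± 0.16, adjusted p = 4.6e-05). The tetraspanin gene tspan36 fell to 58.5 and 53.3 FPKM in mutants, against 225 and 225 FPKM in WT (log2 fold change -1.99 ± 0.071, adjusted p = 4.1e-07), and the connexin gene cx44.2, for a gap junction channel, to 3.64 and 3.41 FPKM in mutants, against 33.1 and 30.2 FPKM in WT (log2 fold change -2.85 ± 0.14, adjusted p = 2.3e-06). At stage I cx44.2 was higher in mutants, at 51.4 and 50.7 FPKM in mutants and 3.40 and 2.52 FPKM in WT.

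The stage II differences were then set beside those at stage I for the same 13062 genes, of which 5895 (45.1%) were called at stage I, 2322 higher and 3573 lower in mutants. Genes higher in mutants at both stages numbered 1128 (8.64% of genes tested), which is 32.0% of the stage II rises and 48.6% of the stage I rises. Genes lower at both stages numbered 1212 (9.28% of genes tested), or 45.7% of the stage II falls and 33.9% of the stage I falls. The log2 fold changes of the stages had r = 0.249 across genes. The difference between the genotype effects was itself called for 4847 genes (37.1%), with a more positive effect at stage II for 3163 (24.2%) and a more negative effect for 1684 (12.9%). Of these calls 65.3% were positive, but 47.9% with median-of-ratios scaling and 52.6% with quantile normalization, so that this balance too depends on scaling.

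Some genes switched direction between the stages. There were 841 genes (6.44%) called in opposite directions with a called difference, 568 (4.35%) higher at stage II and lower at stage I in mutants and 273 (2.09%) the reverse. Among the widest of these stage differences, gtf3ab had 83.8 and 77.1 FPKM in mutants and 0.299 and 0.470 FPKM in WT at stage I, the reverse of stage II. The forkhead gene foxa had 1.53 and 0.693 FPKM in mutants, against 16.7 and 18.5 FPKM in WT (log2 fold change -3.17 ± 0.20, adjusted p = 1e-05), and 81.7 and 94.7 FPKM in mutants and 0.526 and 0.442 FPKM in WT at stage I. In the other direction, tdrd1 was near 0 in mutants at stage I, at 0.0154 and 0.0203 FPKM in mutants and 57.1 and 54.4 FPKM in WT, and above WT at stage II. The glycosylation gene alg14 was at 0 and 0.112 FPKM in mutants and 134 and 136 FPKM in WT at stage I, and at 42.05 and 49.1 FPKM in mutants, against 29.3 and 36.8 FPKM in WT at stage II. By contrast, the germ plasm gene nanos3 and the oocyte factor figla rose at both stages, with a difference between the stages of -0.37 ± 0.092 for nanos3 (adjusted p = 0.016) and of -0.35 ± 0.17 for figla (adjusted p = 0.13).

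**Figure D5:**
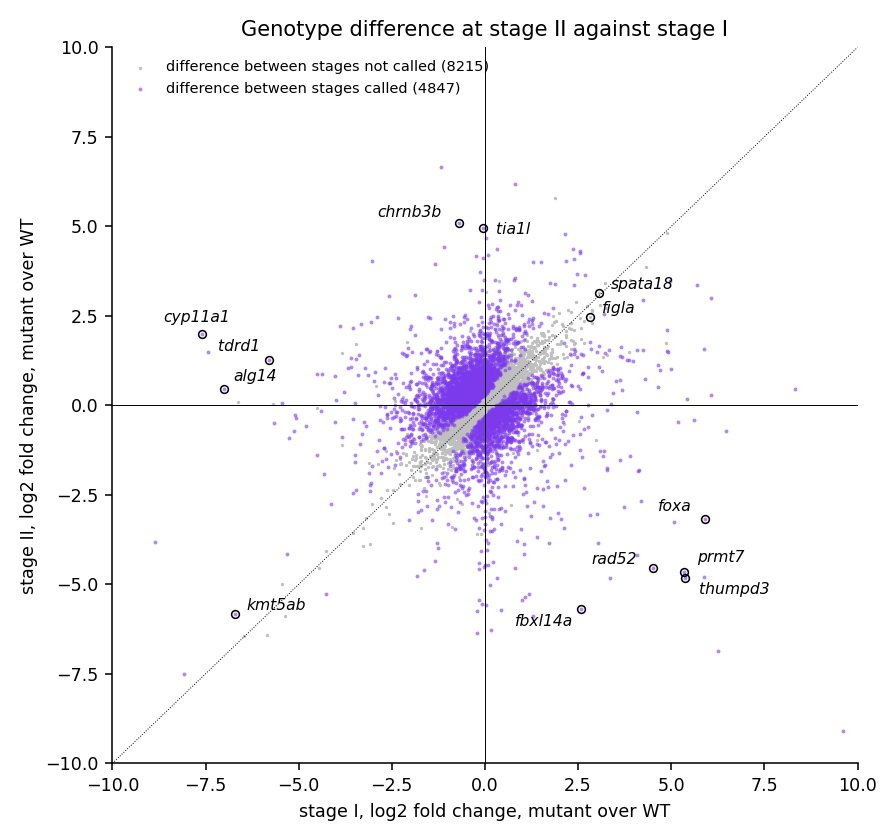
log2 fold change between mutant and WT oocytes at stage II (vertical axis) against that at stage I (horizontal axis) for the 13062 genes tested; purple points are the 4847 genes whose difference between the stages was called, and the dotted line marks equal effects. The genes thumpd3, prmt7 and foxa lie at lower right (lower in mutants at stage II, higher at stage I), cyp11a1 and tdrd1 at upper left, and kmt5ab, figla and spata18 near the line.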

How the data were processed

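Libraries of polyadenylated RNA from znf706 mutant and WT stage I and stage II oocytes were analysed, 2 to a group, and 3 CUT&Tag libraries of the series were not analysed here. The deposited table holds FPKM per gene for each library, as the authors computed them. Per the submitters' processing notes, the tools were Trim Galore, STAR 2.5.3a and Cufflinks 2.2.1 and the build was danRer11. FPKM do not give the number of reads, so the depth and the counting error are unknown, and low values are the least certain.

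Of 32197 entries, 24 exact duplicates were merged. For 103 gene IDs with conflicting entries the values were left out of the test, and these conflicts lay in the stage I columns alone. Genes that reached 1 FPKM in 2 or more of the 4 stage II libraries were tested on log2(FPKM + 1), with no further scaling. The fit used limma 3.58.1 in R 4.3.3 (lmFit, contrasts.fit and eBayes with a trend), with 1 mean for each of the 4 groups over all 8 libraries, and had 4 residual and 4.35 prior degrees of freedom. Contrasts were mutant minus WT at stage II, the same at stage I, and their difference. Benjamini-Hochberg adjusted p-values under 0.05 over all 13062 genes were called. The calculations were checked on simulated data with known changes.

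The rule for named genes took znf706 and 5 tested genes on each side of it, a set of germ plasm genes, the 15 largest rises and 15 largest falls outside clone names that did not overlap between genotypes and kept their call without each stage II library, up to 6 called members of each of 37 lists by size of change, the 8 highest on or off genes in each direction and the 8 largest stage differences of each sign. Other genes in the text are list members, markers or members of runs chosen after their values were seen. The members and lists were chosen with earlier results of these data known, and 3 patterns that trim the lists were added after values were seen. Gene order was taken from GRCz12tu, by name and not by coordinate. Alternatives covered the pseudocount, the filter, the scaling, the prior, the libraries fitted, a replicate block, a 2-fold limit and leaving out each library. The result for 1 gene is not reported here.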

Additional observations from a re-analysis of the deposited data

Results flagged for a closer look

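The genotype effect differed between the stages, by limma's test of the difference with Benjamini-Hochberg adjustment, in 841 genes that were called in opposite directions at stage II and stage I. Of these, 16 with wide differences are given below with their stage II effect minus their stage I effect on the log2(FPKM + 1) scale. The difference was positive, with mutants above WT at stage II and below WT at stage I, for cyp11a1 (9.59), alg14 (7.47), tdrd1 (7.05), ndrg1b (6.12), chrnb3b (5.79), nck1a (5.70), tmprss15 (5.64) and mtus1b (5.59). The hypoxia-related gene ndrg1b had 38.6 and 41.2 FPKM in mutants, against 8.54 and 7.04 FPKM in WT at stage II, and 2.88 and 1.88 FPKM in mutants, against 50.6 and 47.2 FPKM in WT at stage I. The adaptor gene nck1a had 28.8 and 28.9 FPKM in mutants, against 4.29 and 7.45 FPKM in WT at stage II, and 1.26 and 0.936 FPKM in mutants, against 25.1 and 21.8 FPKM in WT at stage I.

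The difference was negative, with mutants below WT at stage II and above WT at stage I, for gtf3ab (-10.7), thumpd3 (-10.2), prmt7 (-9.98), foxa (-9.07), rad52 (-9.06), spsb1 (-8.34), fbxl14a (-8.27) and znf1156 (-8.17). The SOCS box gene spsb1 had 0.321 and 0.577 FPKM in mutants, against 11.5 and 14.3 FPKM in WT at stage II, and 43.9 and 56.1 FPKM in mutants, against 0.566 and 0.433 FPKM in WT at stage I. The genes prmt7 and fbxl14a were listed at 0 in both mutant libraries at stage II, so their differences depend on the pseudocount. The same holds for any gene near 0 FPKM in a group, among them gtf3ab, thumpd3, znf1156, tdrd1, cyp11a1, alg14, chrnb3b and tmprss15. Single libraries were not tested against the others of their group, since each group has 2.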

How the results depend on the processing

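The depth behind each value is hidden in FPKM, so the error of low values is not known from counts. With a 2-fold limit the stage II calls were 989 higher and 746 lower in mutants, and the called stage differences 1391 positive and 783 negative. The 26 genes on in mutants became 9 at 10 against 0.2 FPKM and 107 at 2 against 0.5 FPKM, and the 70 on in WT became 34 and 138. Leaving out each stage II library in turn gave 2358 to 2816 calls higher and 1857 to 2040 lower, and leaving out each of the 8 libraries gave 2240 to 3391 positive and 1251 to 1533 negative stage differences. The lone library left in a group is then taken to vary like the other groups.

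Quantile normalization gave 3373 higher and 3105 lower, and median-of-ratios scaling 2936 and 3217. All other settings kept the counts within 1.5 times. Labels gave the same replicate numbers to every group, but deviations of libraries with the same number correlated at only -0.081 to 0.068, so the numbers do not pair them. With a replicate block the calls were 3362 higher and 2572 lower over all 8 libraries, 3156 and 2329 in the 4 stage II libraries alone, and 3009 positive and 1598 negative for the stage difference.

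Of 4358 values of 277 named genes under these settings, 4133 kept direction and call, 208 lost the call, 4 gained it and 13 changed sign. No gene that was called at stage II changed sign, and 216 of 260 kept their call under every setting run. The sign changed in genes without a call in the fit of all libraries, and 1 hist1h4l ID reached a call in the other direction (-0.94, adjusted p = 0.025, limma) without mutant replicate 2. The log2 fold change of rnf19a was -0.044 with median-of-ratios scaling and -0.016 to 0.11 on leaving out a library. For IDs named hist1h4l it ran from -0.36 to 0.17, -0.28 to 0.080, -0.15 to 0.81, -0.89 to 0.56, -0.94 to 1.78, -0.33 to 1.16, -1.82 to 0.83 and -0.56 to 2.77 on leaving out a library, and the cause was not tested. Of 1184 counts of list members under these settings, 1031 stayed within 1.5 times.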

Other observations

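Some further runs of adjacent genes, in the gene order of GRCz12tu, moved together in stage II oocytes, and they were chosen after their values were seen. The run tmf1, uba3, cishb and rpusd4 was higher in mutants at both stages. The gene uba3, for a subunit of the enzyme that activates NEDD8, had 124 and 128 FPKM in mutants, against 42.3 and 56.6 FPKM in WT (log2 fold change 1.35 ± 0.13, adjusted p = 8.8e-05) at stage II. The run hyal6, si:ch211-91p5.3, zgc:153935 and wasla was also higher in mutants at both stages. Its gene wasla, for a nucleator of branched actin, had 29.3 and 23.1 FPKM in mutants, against 3.73 and 6.96 FPKM in WT (log2 fold change 2.14 ± 0.24, adjusted p = 0.00023). The run of 5 genes from znf574 to cd4-1 held the chemokine receptor gene cxcr3.1, with 3.995 and 2.97 FPKM in mutants, against 0.690 and 1.13 FPKM in WT (log2 fold change 1.23 ± 0.18, adjusted p = 0.00091). In the run gsk3bb, cxcl18b, caly and msx1b, the homeobox gene msx1b had 14.6 and 20.5 FPKM in mutants, against 4.59 and 4.42 FPKM in WT (log2 fold change 1.73 ± 0.19, adjusted p = 0.00021), and it alone of the 4 was called higher in mutants at stage I.

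The DNA methyltransferase genes dnmt3bb.2 and dnmt3bb.3 lay in a run of 3 with zgc:114174 that rose at stage II and had no call at stage I. Of these, dnmt3bb.2 had 31.0 and 28.03 FPKM in mutants, against 9.36 and 16.4 FPKM in WT (log2 fold change 1.18 ± 0.21, adjusted p = 0.0026).

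In the fit of the 4 stage II libraries alone, 5 of the 29 genes with conflicting stage I entries were higher in mutants and 2 lower. The same fit called 3517 genes higher and 2538 lower in all. With all 8 libraries fitted, 27.0% of genes tested were called higher and 20.3% lower. One of the rises was kat6b, for a histone acetyltransferase, with 4.56 and 3.48 FPKM in mutants, against 2.34 and 1.95 FPKM in WT (log2 fold change 0.67, adjusted p = 0.032). The gene emc4, for a subunit of a membrane insertion complex of the ER, was listed at 0 and 0 FPKM in mutants, against 10.1 and 174 FPKM in WT, so its WT libraries differed widely.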
